A study of Mus musculus with 80 samples.

Results

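The mouse mitochondrial genome encodes 13 proteins, 2 rRNAs and 22 tRNAs, and this section describes how the RNA of its protein-coding genes varied in muscle stem cells (MuSCs) of extraocular muscles (EOM) and of the tibialis anterior (TA), before and after grafting. The members were all genes placed on the mitochondrial chromosome in the deposited expression table, 13 of 25899 genes, together with the percentage of reads on the mitochondrial chromosome in the authors' quality report (Percent in MT). The 13 are the protein-coding genes, and the rRNA and tRNA genes were not analysed here. NADH dehydrogenase, complex I of the respiratory chain, takes 7 of them (mt-Nd1, mt-Nd2, mt-Nd3, mt-Nd4, mt-Nd4l, mt-Nd5 and mt-Nd6), complex III 1 (mt-Cytb), cytochrome c oxidase, complex IV, 3 (mt-Co1, mt-Co2 and mt-Co3), and ATP synthase, complex V, 2 (mt-Atp6 and mt-Atp8).

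MuSCs were sorted by their GFP from Tg:Pax7-nGFP donors, male littermates of a C57BL/6;DBA2 F1 cross aged 7.6 weeks in Experiment 1 and 7 weeks in Experiment 2, in which the Pax7 locus drives nuclear GFP. Pre-graft samples held 500 cells from EOM or TA of 1 donor. For post-graft samples, EOM and TA cells of the same donor were placed in the TA muscles of 1 Rag2-/-;γC-/- recipient, 1 muscle type on each side, which had been injured with cardiotoxin 24 h earlier, and GFP-positive cells were sorted again at day 21 by the labels, which gave fewer cells, by the labels as few as 9 for an EOM graft and 16 to 67 for the TA grafts used (the study's own sample list gives other numbers for some grafts). The recipients lack T, B and NK cells but keep macrophages, and every graft lay in a regenerating limb muscle. The graft groups thus share injury and sorting as well as the host. Every graft had fewer cells than the 500 of a pre-graft sample. By the labels, cell number differed between the EOM and TA grafts of most donors, so it is not matched between the graft groups. RNA was amplified from its poly(A) tail (G&T-seq) and sequenced without strand information.

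In all 40 RNA libraries came from 10 donors in 2 experiments, and 30 passed the study's thresholds: 8 EOM and 8 TA pre-graft, 7 EOM and 7 TA post-graft. Of the other 10, 9 missed a threshold and 1 EOM pre-graft library (Experiment 2, mouse 3) was left out by the study as an outlier, with a Percent in MT of 18.3. The passing libraries held 3326270 to 14402975 reads, of which 963432 to 4169357 fell on genes and 48150 to 1471496 on the 13 mitochondrial genes. Only 1 EOM and 1 TA post-graft library of Experiment 1 passed, so the change on grafting in that experiment rests on single passing grafts, and values are given by experiment below.

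Mitochondrial DNA is transcribed from both strands into long precursors. These are cut, largely at the tRNAs that lie between the coding genes, into mRNAs, most of which carry short poly(A) tails. All 13 genes therefore draw on the same few promoters, and the level of each mRNA also depends on processing and decay. With amplification from the poly(A) tail, the counts depend on that tail as well, which was not measured. The proteins are core subunits of respiratory complexes whose remaining subunits are encoded in the nucleus. Quiescent MuSCs are small cells with few mitochondria, whereas extraocular myofibres are known for a high mitochondrial content.

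All 13 genes matched the RefSeq annotation of GRCm38, on a mitochondrial chromosome of 16299 bases. On the plus strand lie 12 of them: mt-Nd1 at 2751 to 3707, mt-Nd2 at 3914 to 4951, mt-Co1 at 5328 to 6872, mt-Co2 at 7013 to 7696, mt-Atp8 at 7766 to 7969, mt-Atp6 at 7927 to 8607, mt-Co3 at 8607 to 9390, mt-Nd3 at 9459 to 9806, mt-Nd4l at 9877 to 10173, mt-Nd4 at 10167 to 11544, mt-Nd5 at 11742 to 13565 and mt-Cytb at 14145 to 15288. mt-Nd6, at 13552 to 14070, is the only one on the minus strand. Neighbouring genes overlap in 4 places, where reads cannot be given to 1 gene. The shared bases are shown in capitals, on the plus strand, because they bear on which genes can be counted apart:
mt-Atp6 and mt-Co3, MT:8599-8615: aatacataAtgacccac
mt-Nd4l and mt-Nd4, MT:10159-10181: ctactacaATGCTAAaaattatt
mt-Nd5 and mt-Nd6, opposite strands, MT:13544-13573: atactcaaTTAATCTCGAGTAAtctcgata
The fourth and longest overlap joins mt-Atp8 and mt-Atp6 over 43 bases (MT:7927-7969). mt-Nd5 and mt-Nd6 share 14 bases on opposite strands, and since the reads carry no strand information those bases cannot be assigned. For the same reason, reads anywhere in mt-Nd6 cannot be told from plus-strand RNA that runs across it. Values of mt-Nd6 are uncertain in that respect throughout.

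A nuclear copy of the mitochondrial genome bears on 6 genes in full and on 2 in large part. In GRCm38, chr1:24611535-24616188 on the minus strand matches mitochondrial bases 6390 to 11042 over 4654 aligned bases at 99.936% identity, with 2 mismatches and 1 inserted base. The next longest matches, on chromosome 2 and chromosome 4, had identities of 97.362% and 93.009%. The 3 differences are the only bases by which a read could be told from the chromosome 1 copy. They are written here as the mitochondrial base, its position from 1 at the start of the mitochondrial chromosome, and the copy's base, with the differing base in capitals and both sequences in mitochondrial orientation:
A6393T in mt-Co1, mitochondrial: ggaAttgttttatcca
A6393T, copy at chromosome 1 position 24616185: ggaTttgttttatcca
T9461C in mt-Nd3, mitochondrial: gaagagagtaatTaacctgtacact
T9461C, copy at chromosome 1 position 24613117: gaagagagtaatCaacctgtacact
Insertion before position 9829, between mt-Nd3 and mt-Nd4l, mitochondrial: gtttaaaaaaaattaatgatttcg
Insertion, copy at chromosome 1 position 24612749: gtttaaaaaaaaAttaatgatttcg
The 6 genes that lie wholly inside the copied stretch are mt-Co2, mt-Atp8, mt-Atp6, mt-Co3, mt-Nd3 and mt-Nd4l. Every 75-base window of 5 of them, 75 bases being the read length, also occurs exactly in the nuclear genome, and for mt-Nd3 98.9% of windows do. The share was 61.5% for mt-Nd4, 39.8% for mt-Co1, 5.71% for mt-Nd2 and 1.66% for mt-Nd5. It was 0 for mt-Nd1, mt-Nd6 and mt-Cytb.

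The read counts followed that division. Over the 30 libraries, the 6 genes inside the copy together held 0.8078% of the mitochondrial mRNA reads and the other 7 held 99.19%. Per kilobase, mt-Nd6, the lowest of the 7, had 283281 reads, 4.34 times the 65202 of mt-Nd4l, the highest of the 6. How the alignment treated reads that match several places is not given in the sources used here, and the part of the nuclear copy in these low counts was not tested. Values of the 6 genes are therefore uncertain throughout, and so, in part, are those of mt-Nd4 and mt-Co1. The lowest was mt-Atp8, with 3036 reads in all and 2 to 431 per library. None of the 13 genes lacked a read in a passing library.

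Per length, mt-Nd1 and mt-Co1 were the most abundant of the 13. The median level over the 30 libraries was 74506 RPM (reads scaled to library size) per kilobase for mt-Nd1 and 67052 for mt-Co1, the catalytic subunit of cytochrome c oxidase. These held the first or second rank in every passing library, and mt-Cytb, the only mitochondrially encoded subunit of complex III, followed at rank 3 in all 30 at a median of 39116 RPM per kilobase. mt-Nd4 (16228), mt-Nd5 (12792) and mt-Nd2 (11182), membrane subunits of complex I, held ranks between 4 and 6, and their order changed between libraries. mt-Nd6 was seventh in every passing library, at a median of 4264. The 6 genes inside the copy ranged from 171 (mt-Atp8) to 782 RPM per kilobase (mt-Nd3).

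**Figure D1:**
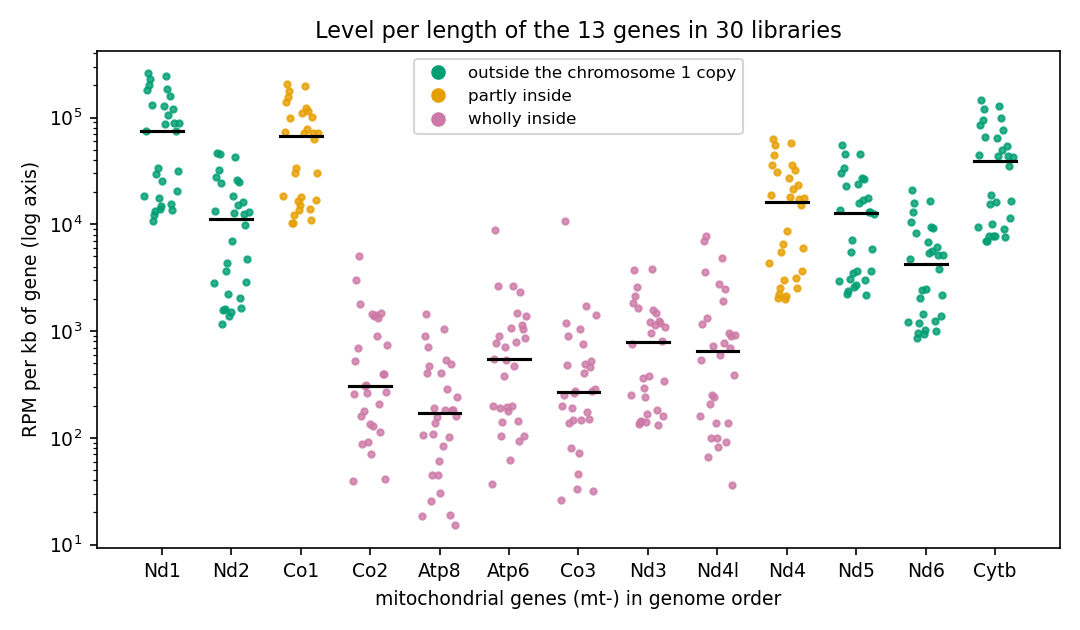
Level of each mitochondrial gene in RPM per kilobase of gene (log axis), one point for each of the 30 passing libraries, coloured by whether the gene lies wholly inside the chromosome 1 copy. mt-Nd1 and mt-Co1 stand highest, and the 6 genes inside the copy have the lowest medians, 171 to 782.

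Percent in MT was highest in the post-graft cells of Experiment 2. In passing libraries it was 4.48 ± 1.99 (mean ± SD, n = 8) in pre-graft EOM, 11.3 ± 7.58 (n = 8) in pre-graft TA, 31.4 ± 18.6 (n = 7) in post-graft EOM and 24.9 ± 13.1 (n = 7) in post-graft TA MuSCs. Post-graft EOM MuSCs had 7.00 times the mean of pre-graft EOM MuSCs, and post-graft TA MuSCs 2.21 times that of pre-graft TA MuSCs. No p-value was computed for this total. At the depth of these libraries the 95% Wilson interval of a library's Percent in MT was at most 0.0426 percentage points to either side, which covers the counting of reads only and not the sampling of molecules before amplification.

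The values of each donor show where the spread lay. In Experiment 1 pre-graft EOM MuSCs had 2.91, 3.04 and 3.64 (mice 3, 4 and 5) and pre-graft TA MuSCs 3.93 and 3.22 (mice 3 and 4). The passing grafts of that experiment had 3.85 (EOM, mouse 4) and 5.45 (TA, mouse 3). The 6 grafts of Experiment 1 that missed a threshold had similar values, at 4.58, 5.39 and 4.91 for EOM (mice 1, 3 and 5) and 3.72, 4.10 and 4.86 for TA (mice 1, 4 and 5). None of the 8 grafts of Experiment 1 exceeded 5.45. Its 4 EOM grafts nevertheless lay above its 3 passing pre-graft EOM libraries, while its TA grafts overlapped with its pre-graft TA libraries.

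In Experiment 2 pre-graft EOM MuSCs had 7.02, 8.16, 4.33, 3.27 and 3.48 (mice 1, 2, 4, 5 and 6). Pre-graft TA MuSCs had 22.9, 17.0, 14.4, 4.23, 6.99 and 17.4 (mice 1 to 6). Post-graft EOM MuSCs had 15.9, 33, 59.6, 37.1, 45.3 and 24.8, and post-graft TA MuSCs 25.3, 16.4, 46.8, 32.3, 19.3 and 28.9 in the same order. All 6 EOM grafts of this experiment lay above its 5 passing pre-graft EOM libraries, whereas its TA grafts overlapped with its pre-graft TA libraries. Mouse 3 was highest in both graft groups, and its EOM pre-graft library was the one left out as an outlier.

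Counted together, the 12 post-graft libraries of Experiment 2 had 32.1 ± 13.3 (SD) and the 2 passing ones of Experiment 1 4.65 ± 1.13. Pre-graft libraries had 9.93 ± 6.82 (n = 11) in Experiment 2 and 3.35 ± 0.424 (n = 5) in Experiment 1. The labels of the experiments differ in donor age, and age, cell number and any other feature of the experiment cannot be told apart here. Since these are pools of cells, more mitochondrial RNA per cell and more cells rich in it cannot be told apart either.

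**Figure D2:**
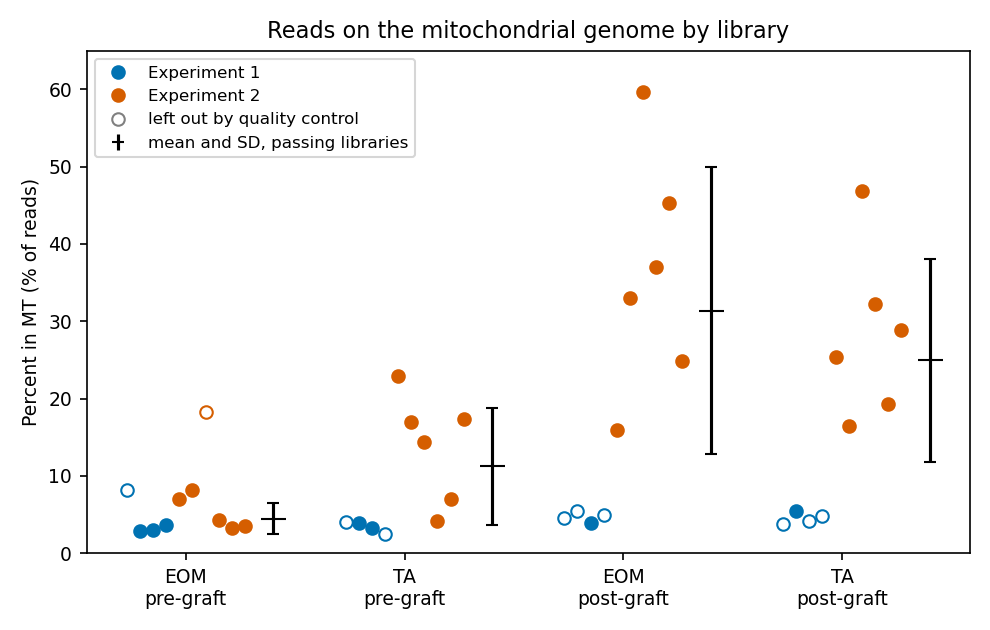
Percent in MT of every RNA library (vertical axis, percent of reads) by group and experiment, with hollow points for the 10 libraries left out of the comparisons. The 12 post-graft libraries of Experiment 2 lie between 15.9 and 59.6, above the 8 post-graft libraries of Experiment 1, which lie between 3.72 and 5.45.

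Before grafting, TA MuSCs had the higher mean Percent in MT. The difference of 6.78 percentage points was larger than the pooled SD of 5.54, but the groups overlapped, with 4 of 8 TA libraries above all 8 EOM libraries. Within donors TA was higher in 6 of 7 pairs, at 0.975 to 5.00 times the EOM value. Within Experiment 2 alone the difference was 8.57. After grafting the order of the means was the other way round: TA grafts lay 6.44 points below EOM grafts, less than the pooled SD of 16.1, and TA was the higher in 2 of 6 donors. The mean of EOM was 26.9 points higher after than before grafting (pooled SD 12.7), and higher in 6 of 6 donors at 1.26 to 13.9 times. That of TA was 13.7 points higher (pooled SD 10.5), and higher in 6 of 7 donors at 0.968 to 7.64 times. Of the grafts, 6 of 7 from EOM and 4 of 7 from TA lay above every passing pre-graft library of their muscle.

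Single genes were then compared on the deposited log2 RPM with limma, fitted across all genes that passed a filter (4 or more of the libraries compared with a log2 RPM over 1). A gene was called at a Benjamini-Hochberg adjusted p under 0.05 and a change above 2-fold, and all 13 members passed the filter in each comparison. The comparisons share libraries, since each of the 4 groups enters 2 of them. Replicates were donors of both experiments. The fits held no term for experiment or donor, so p-values measure the spread between libraries, with the difference between the experiments in it. Libraries of 1 donor were treated as independent. Experiment 1 gave 3 pre-graft and 1 post-graft EOM libraries against 5 and 6 in Experiment 2, and in TA 2 and 1 against 6 and 6. Part of a difference between the experiments can thus enter the differences between groups.

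mt-Nd2 and mt-Nd4 were higher in pre-graft TA than in pre-graft EOM MuSCs, and the other 11 genes did not pass. For mt-Nd2, the lowest, median and highest log2 RPM were 10.25, 10.69 and 12.15 in EOM and 10.74, 12.79 and 14.03 in TA. For mt-Nd4 they were 11.41, 11.69 and 13.13 in EOM and 11.78, 13.69 and 14.96 in TA. The median TA library lay above the highest EOM library, while the lower TA libraries overlapped with EOM. mt-Nd2 was 2.92-fold higher in TA (log2 1.55 ± 0.43 SE, adjusted p = 0.0291) and mt-Nd4 was higher by log2 1.48 ± 0.43 (adjusted p = 0.0379), both in 7 of 7 donors.

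The remaining genes had values of the same sign. mt-Nd1 differed by log2 1.32 (adjusted p = 0.0720), mt-Nd3 by 1.25 (0.0847), mt-Cytb by 1.18 (0.0709), mt-Nd6 by 1.05 (0.0677), mt-Nd5 by 1.05 (0.107) and mt-Co1 by 1.16 (0.125). mt-Co3 (1.17), mt-Atp6 (1.05), mt-Nd4l (0.86), mt-Co2 (0.73) and mt-Atp8 (0.46) had adjusted p-values from 0.204 to 0.682. The median over the 13 was 1.16, against -0.30 over all genes tested. Of the 13217 genes tested 4.56% were called, 1.26% as higher in TA. The 2 calls depended on single libraries. None of the 13 was called without any 1 of the TA libraries of Experiment 2 mice 1, 2 and 6 or of the EOM libraries of Experiment 1 mice 3 and 5 and Experiment 2 mice 5 and 6. With the outlying EOM library kept, none was called, and edgeR on the recovered reads called 8. With donor as block 4 were called, mt-Nd1 (log2 1.15, adjusted p = 0.0302) and mt-Cytb (1.04, adjusted p = 0.0332) in addition.

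On grafting, 12 of the 13 genes rose in EOM MuSCs, which is the largest of the changes seen here. mt-Nd2 had log2 RPM values of 10.25, 10.69 and 12.15 (lowest, median, highest) before and 11.52, 14.82 and 15.55 after grafting. mt-Nd4 went from 11.41, 11.69 and 13.13 to 12.56, 15.60 and 16.41, and mt-Co1 from 13.94, 14.43 and 15.66 to 14.78, 17.73 and 18.27. In each case the lowest graft was that of Experiment 1, which overlapped with the pre-graft libraries, and the 6 grafts of Experiment 2 lay above all of them. mt-Nd2 rose by log2 3.41 ± 0.48 (adjusted p = 7.64e-05) and mt-Nd4 by 3.27 ± 0.46 (adjusted p = 7.72e-05), in 6 of 6 donors each.

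The other complex I genes moved by similar amounts. mt-Nd1 rose by log2 2.85 (adjusted p = 0.000261), mt-Nd5 by 2.70 (0.000419) and mt-Nd6, annotated on the other strand, by 2.66 (0.000325). mt-Nd3 rose by 2.91 and mt-Nd4l by 3.19 (adjusted p = 0.00128). mt-Cytb rose by 2.73 (0.000287) and mt-Co1 by 2.65 (0.000330). Among the genes inside the nuclear copy, mt-Co3 (2.09, adjusted p = 0.0353), mt-Co2 (2.07, 0.0186) and mt-Atp8 (2.04, 0.0241) were called with smaller values. mt-Atp6, a membrane subunit of ATP synthase, was the 1 gene not called: its log2 RPM was 6.13, 7.04 and 8.91 before and 4.64, 9.03 and 12.55 after grafting, a difference of 1.45 (adjusted p = 0.106).

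The median over the 13 was 2.70, against -1.48 over all genes tested, of which 59.3% were called and 3.51% called as higher. On log2 RPM, a share of each library, more reads on some genes leave fewer for the rest. When libraries were scaled on nuclear genes alone, the median of all genes was -0.43, 5.57% of genes were called higher and 7.33% lower, and the median of the mitochondrial genes was 3.75 with 12 called higher. With donor as block 9 remained called, mt-Atp8, mt-Co2 and mt-Co3 being lost, and leaving out 1 library at a time left 9 to 13.

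In TA MuSCs 4 genes rose on grafting. mt-Nd2 had log2 RPM values of 10.74, 12.79 and 14.03 before and 12.83, 14.23 and 15.43 after. mt-Nd4 had 11.78, 13.69 and 14.96 before and 13.55, 15.19 and 16.28 after, and mt-Nd6 9.02, 10.54 and 11.65 before and 10.32, 11.78 and 13.07 after. The groups overlapped for each gene, since the pre-graft TA libraries of Experiment 2 already reached the lower graft values. mt-Nd2 rose by log2 1.67 ± 0.56 (adjusted p = 0.0261), mt-Nd4 by 1.62 ± 0.60 (0.0400), mt-Nd3 by 1.47 ± 0.52 (0.0332) and mt-Nd6 by 1.39 ± 0.46 (0.0248).

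The other 9 genes did not pass. mt-Nd4l differed by log2 1.85 (adjusted p = 0.0532), mt-Nd5 by 1.42 (0.0704), mt-Cytb by 1.43 (0.0873), mt-Nd1 by 1.41 (0.126) and mt-Co1 by 1.24 (0.196). mt-Co2 (1.09), mt-Atp8 (1.07), mt-Co3 (0.73) and mt-Atp6 (0.15) had smaller positive differences. The median was 1.41 against -1.09 over all genes tested, of which 34.7% were called and 3.79% called as higher. With scaling on nuclear genes the median of all genes was -0.31, 6.87% of genes were called higher and 7.45% lower, and 8 mitochondrial genes were called at a median of 2.19. No mitochondrial gene was called without the TA pre-graft library of Experiment 1 mouse 3 or mouse 4 or of Experiment 2 mouse 4, those with the lowest Percent in MT in that group. One was called without the graft of Experiment 2 mouse 6 or the pre-graft library of Experiment 2 mouse 5, 2 without the graft of Experiment 2 mouse 4, and 8 without the graft of Experiment 1 mouse 3. Within Experiment 2 alone only mt-Nd4l was called (log2 1.98, adjusted p = 0.0460), with mt-Nd2 at 1.35 (adjusted p = 0.111).

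**Figure D3:**
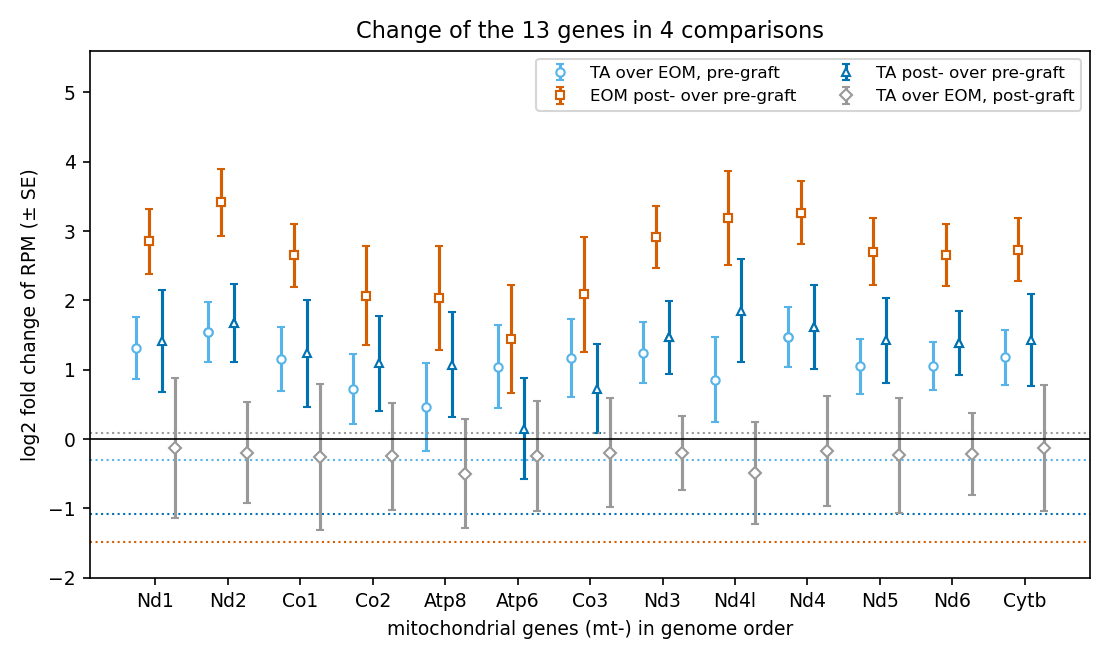
Difference in log2 RPM of each mitochondrial gene in 4 comparisons (points, estimate; bars, SE), with a dotted line at the median of all genes tested. Post-graft over pre-graft EOM has the largest values, with a median of 2.70 over the 13 genes, and TA over EOM after grafting lies near 0.

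Post-graft TA and post-graft EOM MuSCs did not differ in a called way for any mitochondrial gene. The differences were -0.50 to -0.12 on the log2 scale, with SE of 0.54 to 1.05 and an adjusted p of 1.00 by limma. With SEs of that size a 2-fold difference would not have been resolved. Their median was -0.22, against 0.09 over all genes, and 0% of the 12377 genes tested were called. At an unadjusted p under 0.05 there were 452 genes, and DESeq2 called none of the 13. How far EOM moved on grafting less how far TA moved, tested in 1 model over the 4 groups, was positive for every member (0.97 to 1.74) but called for none. It was log2 1.74 ± 0.72 for mt-Nd2 (p = 0.0199, adjusted p = 0.598) and 1.65 for mt-Nd4. The median was 1.34 against -0.31 over all genes, 0.208% of the 14428 genes tested were called, and 1041 had an unadjusted p under 0.05. The EOM and TA changes are thus not shown to differ for a single gene.

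The change on grafting was also fitted within each experiment. To have more than 1 graft of Experiment 1, all libraries above 500000 reads were used, a choice made after seeing the data, which gave 19 libraries per muscle. In EOM, 12 mitochondrial genes rose in Experiment 2, where 51.5% of all genes were called, and 0 were called in Experiment 1, where 0.888% of all genes were. mt-Nd1 changed by log2 2.67 ± 0.38 in Experiment 2 and 0.85 ± 0.50 in Experiment 1, and mt-Nd2 by 3.23 ± 0.40 and 1.39 ± 0.54. The difference between these changes was 1.82 ± 0.63 for mt-Nd1 and 1.85 ± 0.67 for mt-Nd2 (adjusted p = 0.819 by limma for both), and 0% of genes were called for it. In TA, 6 genes rose in Experiment 2 (19.1% of all genes called) and 0 were called in Experiment 1 (0.195%). From passing libraries, the same 12 of Experiment 2, the same fit called 1 of 13 in Experiment 2 (19.8% of all genes), so the other calls rest on the spread with the added Experiment 1 libraries in the fit. The changes in Experiment 2 were the same in both fits. With the added libraries, mt-Nd1 changed by log2 1.25 ± 0.48 in Experiment 2 and 0.39 ± 0.64 in Experiment 1. In EOM the rise of single genes thus rests on Experiment 2, and a difference from Experiment 1 was not called in either muscle. In TA, mt-Nd2, mt-Nd3, mt-Nd4 and mt-Nd6, called over both experiments, were not called in Experiment 2 from passing libraries. Their changes there were 1.35, 1.24, 1.37 and 1.22 in Experiment 2. In Experiment 1, with a single passing graft, they were 1.94, 1.28, 1.62 and 1.15.

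Pre-graft libraries of the 2 experiments were compared with muscle as a covariate. No mitochondrial gene was called, with differences of 0.30 to 1.99 on the log2 scale (Experiment 2 over Experiment 1) and a median of 1.30 against -0.13 over all genes. The largest were mt-Atp6 at 1.99 (adjusted p = 0.109), mt-Nd4l at 1.46 (0.387), mt-Co1 at 1.41 (0.126) and mt-Nd2 at 1.38 (0.133). In that fit 0.159% of 13217 genes were called and 1345 had an unadjusted p under 0.05.

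For the 7 genes not wholly inside the copy, and for mt-Nd3, the share of the mitochondrial mRNA varied far less than the RPM. Across the 30 libraries the RPM of mt-Nd1 spanned 23.9-fold, but its share of the mitochondrial mRNA reads only 1.22-fold, from 23.4% to 28.6%. The share of mt-Cytb spanned 1.28-fold (14.7% to 18.8%) and that of mt-Co1 1.47-fold (28.1% to 41.3%). mt-Nd5 (6.75% to 10.7%, 1.59-fold) and mt-Nd6 (0.739% to 1.31%, 1.77-fold) also kept a narrow range. Within the 7 genes outside the copy the widest were mt-Nd4 (5.16% to 12.3%, 2.37-fold) and mt-Nd2 (2.70% to 7.44%, 2.75-fold). Inside the copy, mt-Nd3 spanned 1.99-fold, and the other 5 spanned 11.1-fold (mt-Atp8) to 29.3-fold (mt-Co3).

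The shares of mt-Nd2 and mt-Nd4 among the mitochondrial mRNA reads had the lowest median in pre-graft EOM and the highest in post-graft EOM MuSCs. The lowest, median and highest share of mt-Nd2 was 2.70%, 3.22% and 3.63% in pre-graft EOM, 3.51%, 3.98% and 4.34% in pre-graft TA, 4.08%, 4.73% and 5.58% in post-graft EOM and 4.05%, 4.38% and 7.44% in post-graft TA MuSCs. Those of mt-Nd4 were 5.16%, 6.54% and 6.81%, then 6.73%, 7.44% and 7.79%, then 7.88%, 8.61% and 9.0%, and finally 7.86%, 8.18% and 12.3% in the same groups. For both genes the post-graft EOM libraries lay wholly above the pre-graft EOM libraries, and for mt-Nd4 the post-graft TA libraries also lay above the pre-graft TA libraries. Of all genes set against the mitochondrial total, 16.3% did not overlap between the EOM groups and 2.52% between the TA groups. The medians of pre-graft TA lay between those of pre-graft and post-graft EOM. For both genes its libraries overlapped with pre-graft EOM, and for mt-Nd2 also with post-graft EOM.

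The ratio of each gene to the mitochondrial total was compared by an exact two-sided permutation test over libraries, 13 ratios in each of 4 comparisons and 52 in all, with p-values left unadjusted. At an unadjusted exact permutation p under 0.05 lay 4 of 13 ratios in each of the first 3 comparisons, against 56.2% of all genes for TA over EOM before grafting, 63.3% for TA on grafting and 92.4% for EOM on grafting, so nothing is read from these counts. In pre-graft TA against EOM the log2 ratio of mt-Nd2 was higher by 0.32 (p = 0.000466, 6 of 7 donors) and that of mt-Nd4 by 0.25 (p = 0.000466, 7 of 7 donors). The ratio of mt-Nd1 was 0.09 higher (p = 0.00466) and that of mt-Nd5 was -0.18 on the same scale (p = 0.00715, lower in 7 of 7 donors). In EOM on grafting mt-Nd2 differed by 0.62 and mt-Nd4 by 0.47, each at p = 0.000155, the smallest p this exact test can give, and in 6 of 6 donors. In TA on grafting mt-Nd4 differed by 0.24 (p = 0.000155) and mt-Nd2 by 0.29 (p = 0.00186), each in 7 of 7 donors. Between the 2 graft groups no ratio had an exact permutation p under 0.05, nor did more than 0.929% of all genes. Leaving out any 1 library kept the exact permutation p of mt-Nd2 and mt-Nd4 at 0.00599 or below in these 3 comparisons. Without the TA graft of Experiment 1 mouse 3, the TA differences fell to 0.18 for mt-Nd2 (exact permutation p = 0.00599) and 0.15 for mt-Nd4 (p = 0.00133 by the same permutation).

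The mean ratios of mt-Co1 and mt-Atp6 were lower after grafting. The mean share of mt-Co1 was 38.0% ± 2.26 (SD, n = 8) in pre-graft EOM and 34.5% ± 2.89 (n = 7) in post-graft EOM, a log2 difference of -0.14 (exact permutation p = 0.0218, lower in 5 of 6 donors). This held in Experiment 2 (37.4% to 41.3% before and 31.7% to 37.4% after) but not in Experiment 1, where pre-graft EOM had 34.6% to 36.8%, the passing graft 39.2% and the 3 others 36% to 39.2%. In TA it was 36.2% ± 1.10 before and 32.8% ± 2.60 after grafting (-0.15, exact permutation p = 0.00155, lower in 7 of 7 donors). The ratio of mt-Atp6 differed by -1.35 in EOM (exact permutation p = 0.0312, lower in 6 of 6 donors) and by -1.23 in TA (p = 0.0238 by the same permutation, lower in 7 of 7 donors). For EOM that p stayed under 0.05 in 10 of the 15 fits with 1 library left out, and was 0.0669 without the EOM graft of Experiment 1 mouse 4. Its mean share was 0.278% in pre-graft EOM, 0.258% in pre-graft TA, 0.165% in post-graft EOM and 0.118% in post-graft TA MuSCs, and its reads cannot be told from the nuclear copy.

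The same ratios fitted by limma across all genes gave 0 calls of 13 in each comparison. With donor as block mt-Atp6 was called for EOM on grafting (log2 ratio -1.82, adjusted p = 0.0450). This fit takes its spread partly from nuclear genes, which move against the mitochondrial total. Of all genes, 42.7% were called for TA over EOM before grafting, 59.7% for TA on grafting, 93.3% for EOM on grafting and 0.00808% between the grafts, and 0.0901% for the difference of the changes. The SE for mt-Nd2 was 0.58 for TA over EOM before grafting in that fit and 0.0676 from the gene's own spread. With each gene's own variance and adjustment over all genes, as 92.2% of all genes did, mt-Nd2 passed the p threshold in EOM on grafting (adjusted p = 0.000126), as did mt-Nd4 (0.000177), mt-Co1 (0.0202) and mt-Atp6 (0.0322). For mt-Nd4 and mt-Co1 the size was under the log2 ratio of 0.5 required for a call. In TA on grafting mt-Nd2, mt-Nd4, mt-Co1 and mt-Atp6 had adjusted p-values of 0.0260 to 0.0466 by limma with each gene's own variance. Of these only mt-Atp6 (-1.23) reached that size. The share of all genes that passed in TA on grafting is not given here, so nothing is read from the number of members that did. For TA over EOM before grafting 6.98% of all genes passed. There the adjusted p by the same limma fit was 0.0211 for mt-Nd2, 0.0413 for mt-Nd4 and 0.0488 for mt-Nd1, each with a difference below that size.

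The shares of mt-Nd2 and mt-Nd4 in EOM were higher after grafting in both experiments, also in Experiment 1, where Percent in MT stayed low. In Experiment 1 pre-graft EOM libraries had 2.81% to 3.63% mt-Nd2 and the passing graft 4.08%, and the 3 EOM grafts that missed a threshold had 4.61% to 4.79%. In Experiment 2 the ranges were 2.70% to 3.40% before and 4.57% to 5.58% after grafting. For mt-Nd4 in EOM, Experiment 1 had 6.54% to 6.81% before, 8.39% in the passing graft and 8.45% to 9.38% in the 3 others, against 5.16% to 6.68% and 7.88% to 9.0% in Experiment 2. Every EOM graft, passing or not, thus exceeded every passing pre-graft EOM library in both shares. The pre-graft EOM libraries left out, with the outlier of Experiment 2 mouse 3 among them, are not part of this comparison.

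In TA the 2 passing pre-graft libraries of Experiment 1 had 3.51% and 3.56% mt-Nd2, the passing graft 7.44% (95% Wilson interval 7.32 to 7.55) and the 3 other grafts 4.41% to 5.37%. In Experiment 2 the values were 3.84% to 4.34% before and 4.05% to 4.89% after grafting, which overlap. Within Experiment 2 alone the log2 difference in ratio was 0.13 for mt-Nd2 and 0.15 for mt-Nd4, against 0.29 and 0.24 over both experiments.

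**Figure D4:**
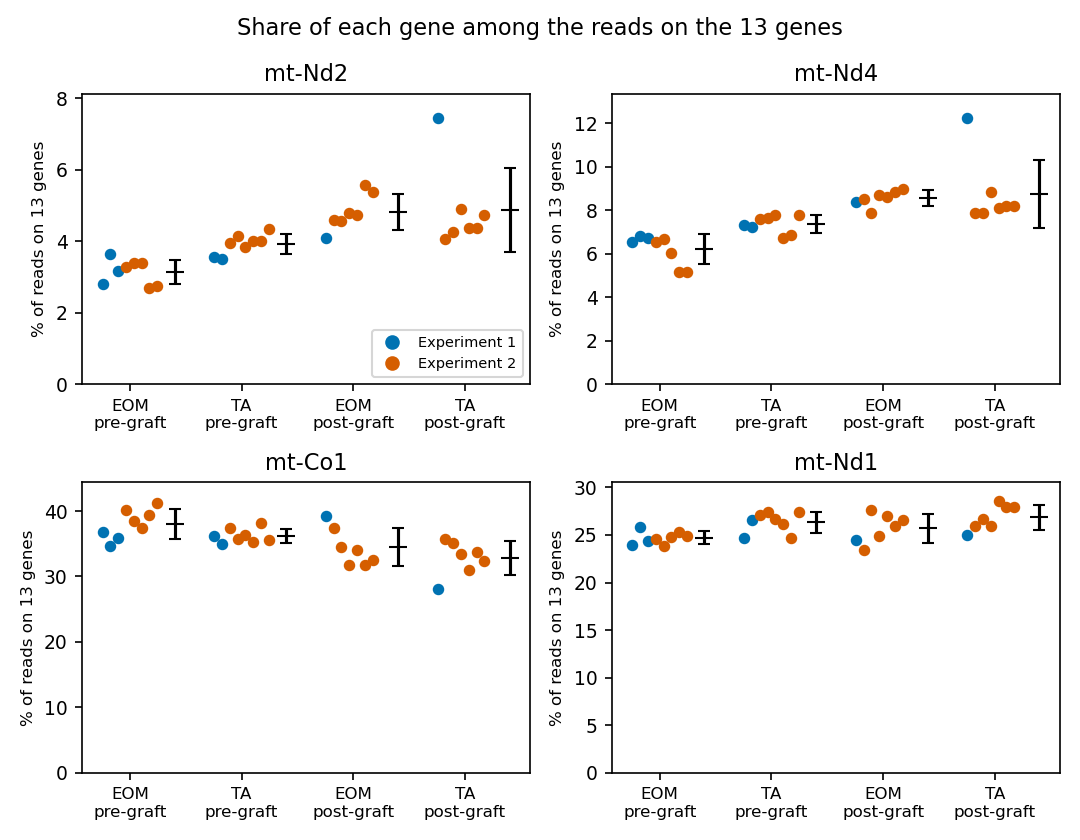
Share of the mitochondrial mRNA reads held by mt-Nd2, mt-Nd4, mt-Co1 and mt-Nd1 (vertical axes, percent) in each passing library by group, with the mean and SD. The shares of mt-Nd2 and mt-Nd4 are lowest in pre-graft EOM and highest in the grafts (means of mt-Nd2 3.14, 3.92, 4.82 and 4.87), while mt-Nd1 stays between 23.4 and 28.6.

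Ratios between pairs of genes, per kilobase, are free of any total but rest on the same reads. The pairs with mt-Nd2 or mt-Nd4 gave the same picture as the shares. The ratio of mt-Nd5 to mt-Cytb did not, with means of 0.353 in pre-graft EOM, 0.322 in pre-graft TA, 0.346 in post-graft EOM and 0.324 in post-graft TA MuSCs. The ratio of mt-Nd4 to mt-Nd5, neighbouring coding genes on the same strand, was 0.877 ± 0.0829 (SD, n = 8) in pre-graft EOM, 1.18 ± 0.153 (n = 8) in pre-graft TA, 1.29 ± 0.117 (n = 7) in post-graft EOM and 1.39 ± 0.451 (n = 7) in post-graft TA MuSCs. All post-graft EOM values (1.15 to 1.47) exceeded all pre-graft EOM values (0.762 to 1.01). The post-graft TA mean was raised by the graft of Experiment 1 mouse 3 at 2.40, and without it was 1.23 ± 0.0785. mt-Nd2 to mt-Nd1 was 0.117, 0.137, 0.173 and 0.169 in the same order of groups (0.151 in post-graft TA without that graft), and mt-Nd1 to mt-Co1 was 1.05, 1.18, 1.21 and 1.33. The ratio of mt-Nd6 to mt-Nd5, annotated on opposite strands, was 0.380, 0.384, 0.368 and 0.386 (0.337 without it). The strand of these reads is not known, so the ratio cannot be read as one between the strands.

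Nuclear genes of the same complexes, in lists chosen by function, did not rise with the mitochondrial genes. In EOM on grafting no tested nuclear gene of complexes I to V was called higher: 26 of 36 complex I genes fell at a median of -1.21, where 55.8% of all genes tested were called lower, among them Ndufs1 (-2.45), Ndufv3 (-1.85), Ndufa10 (-1.82), Ndufv1 (-1.70) and Ndufc1 (-1.67). All 4 subunits of complex II, the only complex with no mitochondrial gene, fell: Sdha (-1.92), Sdhb (-1.42), Sdhd (-1.37) and Sdhc (-1.22). Complex III had 6 of 9 lower (median -1.15), complex IV 10 of 11 (-1.19) and complex V 12 of 15 (-1.20). These medians are smaller in size than the -1.48 of all genes tested, and nothing is read from the counts. With scaling on nuclear genes none of the tested subunits of complexes I to V was called in either direction, while the 12 mitochondrial genes were.

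In TA on grafting the calls had the same direction, and 30.9% of all genes tested were called lower. Of complex I 15 of 36 genes fell (median -1.02 against -1.09 over all genes), with Ndufa9 (-2.16) and Ndufv3 (-2.09) among the largest, as did 3 of 4 of complex II, 2 of 9 of complex III (Cyc1 -1.80, Uqcrc1 -1.60), 4 of 11 of complex IV (Cox5a -1.28, Cox6b1 -1.09, Cox6a1 -1.08, Cox4i1 -1.03) and 6 of 15 of complex V. None was called higher. With scaling on nuclear genes 1 each of complexes II, III and V stayed lower: Sdha (-1.41), Cyc1 (-1.03) and Atp5g2 (-1.04). Before grafting, no nuclear gene of complexes I to V was called between TA and EOM.

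Of the genes that maintain, transcribe or process the mitochondrial genome, none was called higher on log2 RPM. In EOM on grafting, against the 55.8% of all genes called lower, 8 of 16 genes for mtDNA maintenance and transcription fell (median -1.34), including Polrmt, the mitochondrial RNA polymerase (-2.82), the exonuclease gene 8430406I07Rik (Mgme1, -2.56), Mterfd2 (-2.44), Peo1, the Twinkle helicase (-2.43), and Ssbp1 (-2.20). Of 29 genes for mitochondrial RNA processing 21 fell (median -1.93), led by Ddx28 (-3.63), Fastkd3 (-3.49), Fastkd5 (-3.33), Fastk (-3.12) and Nsun4 (-2.59). With scaling on nuclear genes only Ddx28 (-2.58) and Fastkd5 (-2.28) of these lists were called, the latter being an RNA-binding protein needed to mature mitochondrial mRNAs that are not flanked by tRNAs.

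In TA on grafting, against the 30.9% of all genes called lower, 4 of 15 mtDNA genes fell, a share below that of all genes, namely 8430406I07Rik (-3.70), Tfam, which packages mtDNA and activates its transcription (-3.33), Tfb2m (-2.05) and Ssbp1 (-1.96), and 13 of 29 RNA processing genes fell. With scaling on nuclear genes 8430406I07Rik (-2.93), Tfam (-2.55), Fastkd5 (-2.66) and Dhx30 (-1.15) stayed lower and Trmt61b, a mitochondrial tRNA methyltransferase, was higher (2.12). Of the regulators of mitochondrial biogenesis, Pprc1 (-2.07) and Nrf1 (-1.61) fell in EOM, and Nrf1 (-2.93), Gabpa (-1.45) and Pprc1 (-1.32) in TA, and with scaling on nuclear genes Pprc1 in EOM stayed lower (-1.02). Before grafting the RNA helicase gene Ddx28 (-2.32, adjusted p = 0.0246) and Pnpt1 (-1.08, adjusted p = 0.0416) were lower in TA, 2 of 29 RNA processing genes against 3.31% of all genes, and with scaling on nuclear genes neither was called. Between the 2 graft groups no gene of these lists was called by limma.

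**Figure D5:**
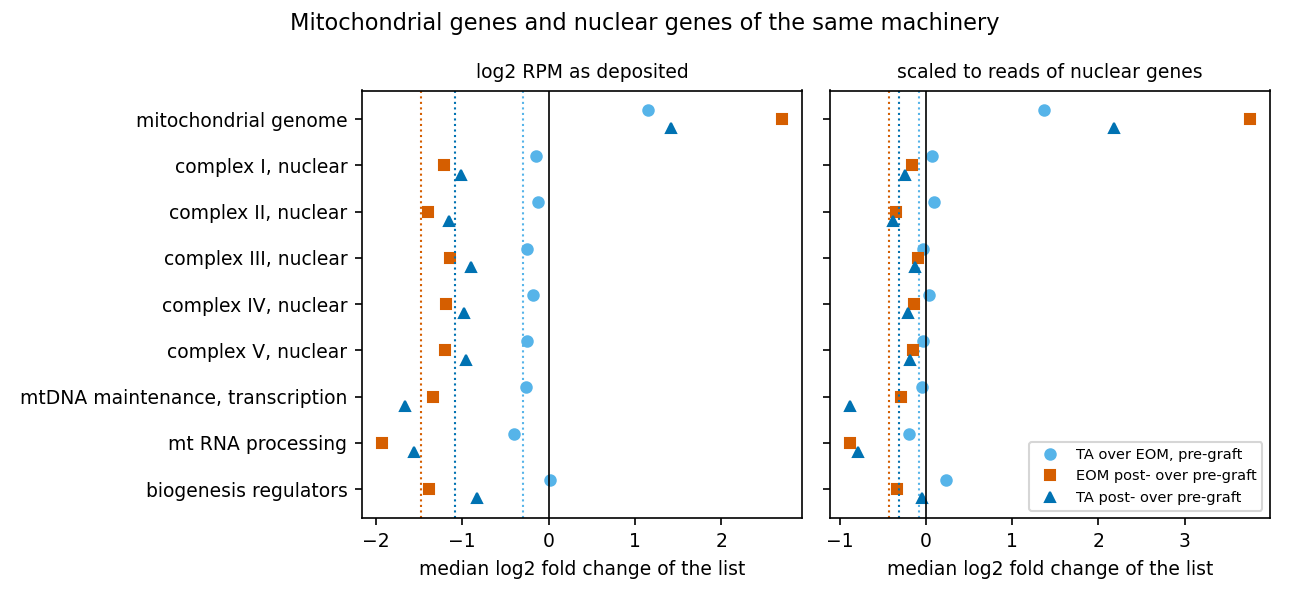
Median log2 difference of the 13 mitochondrial genes and of the nuclear gene lists by comparison, on log2 RPM and with scaling on nuclear genes. On both scales the mitochondrial genes lie above 0 in post-graft over pre-graft EOM (2.70 and 3.75), and on log2 RPM the medians of the nuclear lists lie below 0.

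Markers of the labelled and of other cell types moved along with grafting and are given beside these results, and their part in them was not tested. The summed RPM of 8 MuSC markers, Pax7 among them, was 11777 to 14929 in pre-graft EOM and 10576 to 18276 in pre-graft TA, but 1189 to 11523 in post-graft EOM and 231 to 8617 in post-graft TA MuSCs. On grafting 8 of 8 fell in EOM and 7 of 8 in TA on log2 RPM, against 55.8% and 30.9% of all genes. With scaling on nuclear genes 2 of 8 fell in EOM and 7 of 8 in TA, against 7.33% and 7.45%. Pax7 had mean levels of 395, 907, 178 and 182 RPM in pre-graft EOM, pre-graft TA, post-graft EOM and post-graft TA MuSCs. The defining gene was thus present in each group, but these means do not show whether every library held it.

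Endothelial markers (8 genes) summed to 97.1 to 813 RPM in pre-graft EOM, 17.1 to 2530 in pre-graft TA, 197 to 5786 in post-graft EOM and 1267 to 6881 in post-graft TA MuSCs. On grafting 7 of 8 rose in each muscle, where 3.51% of all genes were called higher in EOM and 3.79% in TA. Myofibre genes (12) summed to 68.9 to 138, 186 to 558, 154 to 1991 and 213 to 975 RPM in the same order. On grafting 9 of 11 tested were higher in EOM, and 4 were higher and 1 lower in TA, against the same shares of genes called higher and 30.9% called lower in TA. Before grafting the myofibre genes Acta1 (2.89) and Myh4 (2.63) were higher in TA than in EOM, as were 1.26% of all genes. In the same order of groups, erythroid genes (7) summed to 0 to 5542, 0 to 13979, 0.855 to 9651 and 2.46 to 3827 RPM, with medians of 1.72, 0.820, 7629 and 5.10. Erythroid RNA was thus abundant in most EOM grafts and in at least 1 library of each other group.

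Macrophage markers (10), which recipients could supply, summed to 22.6 to 2042, 2.02 to 43.8, 2.87 to 764 and 9.84 to 71.4 RPM, and 4 of them had no read in any pre-graft TA library and 2 in any post-graft TA library. Fibro-adipogenic markers (8) summed to 1987 to 3921, 1954 to 3608, 970 to 8402 and 814 to 3512 RPM. The stress genes (12) that dissociation is known to induce summed to 12173 to 20618, 18034 to 33457, 3754 to 10804 and 2316 to 11872 RPM. The grafts of each muscle thus lay below its pre-graft libraries without overlap. On this scale the median log2 change of all genes tested was itself -1.48 in EOM and -1.09 in TA on grafting, so nothing is read from the lower sums.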

How the data were processed

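RNA of MuSCs from both muscles and stages was amplified from poly(A) tails and sequenced as 75-base read pairs. Per the labels and methods the authors trimmed reads with Trim Galore 0.4.4, aligned them with HISAT2 2.1.0 to GRCm38 and counted them per gene in Seqmonk. The deposited expression table holds log2 RPM (reads scaled to library size), and the deposited quality report holds percent values per library, including Percent in MT. Its genes sum to 1072420 to 1526290 RPM in a passing library, so the scale is not the sum of its own rows. In the deposited table a gene without a read carries the value of 0.9 of a read, and 99.9932% of values came out as whole counts of reads (tolerance 0.02), which served edgeR and DESeq2 as alternatives. No column of samples was left unused, and the 40 bisulfite samples were not analysed here.

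Libraries were those that met the study's thresholds (more than 500000 reads, at least 70% in genes and 65% in exons) and were not left out as an outlier. log2 RPM was tested with limma 3.58.1 in R 4.3.3 on the 2 groups compared, with no block or covariate, over genes above log2 RPM 1 in at least 4 libraries. Calls needed an adjusted p under 0.05 and a log2 change above 1, or above 0.5 for ratios to the summed RPM of the 13 mitochondrial genes. Ratios were also tested by exact permutation over libraries. Alternatives used edgeR 4.0.16 and DESeq2 1.42.0. The fits were tested on simulated data. Figures were drawn with Python 3.11.15 and matplotlib 3.10.9. Nuclear copies were found by matching the mitochondrial chromosome of GRCm38 to its nuclear chromosomes, and each 75-base window of a gene was searched in them on both strands.

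EOM and TA samples, before and after grafting, come from the same donors by the labels, so the donor pairs them by design. The deviations of paired libraries from their group means correlated at -0.218 to 0.177 over genes. All 13 mitochondrial genes are named, and of other lists the called genes where 5 or fewer, otherwise those with the largest changes. The members and lists were chosen with earlier results of these data known. Intervals cover counting error only.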

Additional observations from a re-analysis of the deposited data

Results flagged for a closer look

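Gene levels and shares were examined in 108 groups of libraries for a library that stands apart by Dixon's test, and 8 were found. Chance alone flags about 1 in 20 such groups, and genes of 1 library are not independent of each other.

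The post-graft libraries of Experiment 1 were the lowest of their groups. The EOM graft of mouse 4 had a log2 RPM of 14.78 for mt-Co1, against 16.80 to 18.27 in the other 6. The TA graft of mouse 3 had 14.75 for mt-Co1, against 16.75 to 18.20, and 12.69 for mt-Nd5, against 14.80 to 16.33.

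The same TA graft had the highest shares of 3 complex I genes among the mitochondrial mRNA reads. mt-Nd2 held 7.44% (95% Wilson interval 7.32 to 7.55) against 4.05% to 4.89% in the other TA grafts, mt-Nd4 held 12.3% (12.1 to 12.4) against 7.86% to 8.82%, and mt-Nd6 held 1.31% (1.26 to 1.36) against 0.739% to 0.954%.

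The EOM graft of Experiment 2 mouse 3, with the highest Percent in MT of the 40 libraries, had 0.600% (95% Wilson interval 0.588 to 0.613) of its mitochondrial mRNA reads on mt-Atp6 and 0.845% (0.831 to 0.860) on mt-Co3. The other EOM grafts had 0.0347% to 0.208% and 0.0288% to 0.150%. These genes lie inside the chromosome 1 copy.

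In a column outside the comparisons, the percentage of reads in rRNA was 9.44 in that EOM graft and 2.35 in the EOM graft of Experiment 2 mouse 5, above the 0.465 to 1.69 of the pre-graft libraries.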

How the results depend on the processing

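Results were recomputed under 137 alternatives over 15 results, of which 110 gave the same reading, and with each library left out in turn, where 217 of 240 values did. A count of called genes had the same reading if equal or close, a difference if it kept its sign and moved by less than the pooled SD. The values that did not were 13 of 16 for calls in TA over EOM before grafting, 7 of 15 in TA on grafting and 3 of 15 for ratios in EOM on grafting. Differences in Percent in MT kept their direction throughout. Leaving out 1 library gave 5.11 to 7.93 points for TA over EOM before grafting, 10.0 to 16.9 for TA on grafting, 22.2 to 31.5 for EOM on grafting and -11.0 to -1.73 for TA over EOM after grafting.

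For TA over EOM before grafting 2 genes were called. The number was 4 with no filter, 4 with donor as replicate block and 4 with experiment as covariate, 8 with edgeR and 8 with DESeq2. It was 0 with all libraries (2 of them nearly empty), 0 with the outlying EOM library and 0 with 1 fit over the 4 groups, and 0 to 7 with 1 library left out. For TA on grafting 4 were called, against 8 with no filter, 7 with 1 fit over the 4 groups, 8 with scaling without mitochondrial genes, 9 with median centring, 9 with edgeR and 10 with DESeq2, but 1 within Experiment 2 alone, 2 with all libraries and 0 to 8 with 1 library left out. For EOM on grafting 12 were called, 8 to 13 under the alternatives and 9 to 13 with 1 library left out. Experiment 2 over Experiment 1 before grafting gave 0 calls, 1 with no filter and 8 with all pre-graft libraries. In TA over EOM after grafting and in the difference of the changes 0 were called under each alternative and with each library left out (0 to 0).

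Per mitochondrial mRNA 0 genes were called in each comparison. By exact permutation without adjustment 4 had a p under 0.05 for TA over EOM before grafting, 4 for TA on grafting and 4 for EOM on grafting. The variance of each gene alone gave 1 for TA on grafting and 2 for EOM on grafting. For EOM on grafting 1 was called with donor as replicate block, 1 with experiment as covariate, 1 within Experiment 2 alone and 1 with all libraries, in each case mt-Atp6 (log2 ratio -1.82, adjusted p = 0.0450 with the block), and 0 to 1 with 1 library left out. The 1 call came without the EOM graft of Experiment 2 mouse 3, Experiment 1 mouse 4 or Experiment 2 mouse 5. The cause of these differences was not tested. The block changed no other call beyond those given here and beside the results. A denominator with the 2 rRNA genes was planned and not run, since those genes were not analysed here. The alternatives with each library scaled to the same sum, the variance of each gene alone, a denominator of 7 genes and the fits by experiment were chosen after seeing the data.

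Depth limits the genes inside the nuclear copy most, where mt-Atp8 had as few as 2 reads, and with 2 passing grafts in Experiment 1 the comparison of the experiments is imprecise.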

Other observations

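The number of cells in a graft was set beside its Percent in MT within Experiment 2, where 6 grafts per muscle passed (9 to 60 cells in EOM grafts and 16 to 67 in TA grafts by the labels). These were the only 2 such relations computed. In EOM grafts Pearson's r was -0.31 (exact permutation p = 0.544, adjusted 0.544) and Spearman's rho -0.26 (exact permutation p = 0.658). In TA grafts r was -0.62 (exact permutation p = 0.178, adjusted 0.356) and rho -0.77 (exact permutation p = 0.1, adjusted 0.2). Without the 2 grafts farthest from the median cell number r was -0.96 in EOM and -0.21 in TA grafts, over 4 grafts each. Neither relation passed its test. The study's own sample list gives other cell numbers for some of the TA grafts, which were not used.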
